A study of Mus musculus with 24 samples.

Results

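The genes described here are 34 mouse genes of glycolysis and the pentose phosphate pathway, out of 24506 genes in a table of exon read counts. They were chosen by name: glucose and lactate carriers, the glycolytic enzymes with their isozymes, the PFKFB regulators of phosphofructokinase, the pyruvate dehydrogenase kinases, and 5 enzymes of the pentose phosphate pathway. All 34 were found in the table and all 34 passed the filter on low counts, which kept 14550 genes for testing. The study asked how the transcription factors EBF1 and PAX5, which set up the B-lymphocyte programme, act in early B-cell progenitors. RNA was sequenced from fetal liver cells of C57BL6/J mice that carried the label pro-B and had been expanded on OP9 stromal cells with IL-7 and the ligands of KIT and FLT3. Every group carried the retroviral vector pMiG, wild type (Wt) included. The 14 libraries formed 7 groups of 2: Ebf1-KO cells with pMiG encoding Ebf1, with pMiG encoding Pax5 or with empty pMiG, Pax5-KO cells with the same 3 vectors, and Wt cells with empty pMiG. An EBF1 chromatin immunoprecipitation from the line 230-238, an Abelson-transformed mouse pre-B line, gave 1 peak list. The labels do not say that the libraries of a group came from separate cultures, so the p-values below reflect only variation among these libraries, and that variation may be technical.

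Glycolysis breaks glucose down to pyruvate in the cytosol. Hexokinase traps glucose in the cell, phosphofructokinase commits it to the pathway, and the PFKFB enzymes set the level of fructose 2,6-bisphosphate, a strong activator of phosphofructokinase. Lactate dehydrogenase turns pyruvate to lactate, which leaves through the monocarboxylate carriers, while the pyruvate dehydrogenase kinases hold pyruvate back from the mitochondria. The pentose phosphate pathway branches off after hexokinase and supplies NADPH and ribose for biosynthesis. Dividing lymphocyte progenitors are known for high glucose use, and EBF1 and PAX5 are known as the factors that commit them to the B lineage.

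The libraries held 16.1 to 42.1 M exon counts (M, mega), and Pearson correlations of log2 CPM between the libraries of a group were 0.895 to 0.971. CPM are counts per M exon counts, with TMM-scaled totals, and each library is given as replicate 1 and then replicate 2. Ebf1 had 244 and 282 CPM in Ebf1-KO cells with empty pMiG, against 966 and 1102 CPM in Wt cells, and Pax5 had 20.1 and 12.3 CPM in Pax5-KO cells with empty pMiG, against 412 and 333 CPM in Wt cells. The counts cover whole transcripts, so residual reads of a disrupted gene and reads of a vector's cDNA cannot be separated from each other or from intact transcripts. The label pro-B was met by early B markers in Wt cells, where 10 genes summed to 7767 and 7132 CPM. It was not met in Ebf1-KO cells with empty pMiG, where the same genes summed to 28.9 and 39.4 CPM and Vpreb2 and Vpreb3 were at 0, and Pax5-KO cells with empty pMiG lay between these, at 1029 and 1098 CPM. The 10 myeloid markers summed to 133 to 769 CPM across the knockout libraries, against 65.6 and 60.7 CPM in Wt cells. The 10 T-lineage markers summed to 119 to 608 CPM across the knockout libraries, against 39.6 and 22.2 CPM in Wt cells, and the 10 NK and innate lymphoid markers to 72.7 to 318 CPM, against 0.725 and 1.72 CPM in Wt cells, where Ncr1, Gzmb, Prf1, Eomes and Tbx21 were at 0. Markers of OP9-type stroma summed to 10.6 to 93.7 CPM over all libraries, with Lum and Dcn at 0, and erythroid markers to 1.58 to 22.9 CPM. Of 6 stroma markers tested, Pdgfrb was called higher and Acta2 lower in each knockout with empty pMiG against Wt. These are 33.3% in each (edgeR adjusted p under 0.05), beside 14.7% and 13.6% of all genes tested. Mean Pdgfrb was 60.7 CPM in Ebf1-KO cells with empty pMiG, against 0.0572 CPM in Wt cells, and mean Acta2 5.41 against 59.8 CPM. The markers also moved with the vectors. Early B markers summed to 1819 and 1837 CPM in Ebf1-KO cells with Ebf1 and 457 and 539 CPM with Pax5, against the 28.9 and 39.4 CPM with empty pMiG, and myeloid markers to 392.5 and 401 CPM with Ebf1 and 769 and 758 CPM with Pax5, against 739 and 764 CPM with empty pMiG. In Pax5-KO cells early B markers summed to 2185 and 1976 CPM with Ebf1 and 4024 and 4445 CPM with Pax5, against the 1029 and 1098 CPM with empty pMiG, and myeloid markers to 348.5 and 367 CPM with Ebf1 and 133 and 176 CPM with Pax5, against 505 and 633 CPM with empty pMiG. T-lineage markers in Pax5-KO cells summed to 223 and 293 CPM with Ebf1 and 129 and 119 CPM with Pax5, against 518 and 608 CPM with empty pMiG. These cell-type markers thus moved beside the comparisons with Wt and those with empty pMiG below; their part in the results was not tested. In such bulk samples, fewer cells of a type and less RNA per cell cannot be told apart.

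The carrier and regulator genes Slc16a1 and Pfkfb3 were the members that passed the test in more than 1 of the 6 comparisons of a knockout with Wt or of a vector with empty pMiG, and Ldha was the member that rose with Pax5 in Pax5-KO cells. Slc16a1, which encodes the lactate and pyruvate carrier MCT1 (NM_009196, mm10 chr3:104638664-104658462, plus strand), had 145 and 149 CPM in Ebf1-KO cells with Ebf1, 13.8 and 28.2 CPM in Ebf1-KO cells with Pax5, and 44.4 and 49.9 CPM in Ebf1-KO cells with empty pMiG. It had 249.9 and 193 CPM in Pax5-KO cells with Ebf1, 203 and 231 CPM in Pax5-KO cells with Pax5, 99.9 and 121 CPM in Pax5-KO cells with empty pMiG, and 157 and 144 CPM in Wt cells. Its highest library was 18.2 times its lowest, and in Ebf1-KO cells the 3 vector groups did not overlap.

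Pfkfb3 (NM_001177753, mm10 chr2:11471431-11502090, minus strand) encodes the PFKFB isozyme with the highest ratio of kinase to phosphatase activity. It had 89.3 and 76.9 CPM in Ebf1-KO cells with Ebf1, 55.6 and 36.3 CPM in Ebf1-KO cells with Pax5, and 20.9 and 28.3 CPM in Ebf1-KO cells with empty pMiG. It had 62.3 and 98.6 CPM in Pax5-KO cells with Ebf1, 96.2 and 101 CPM in Pax5-KO cells with Pax5, 53.9 and 57.9 CPM in Pax5-KO cells with empty pMiG, and 102 and 79.7 CPM in Wt cells. Both libraries of Ebf1-KO cells with empty pMiG lay below all other 12 libraries.

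Ldha (NM_010699, mm10 chr7:46845804-46855627, plus strand) encodes the lactate dehydrogenase subunit that favours lactate formation. It had 552 and 606 CPM in Ebf1-KO cells with Ebf1, 347 and 431 CPM in Ebf1-KO cells with Pax5, and 444 and 634 CPM in Ebf1-KO cells with empty pMiG. It had 423 and 491 CPM in Pax5-KO cells with Ebf1, 778 and 1276 CPM in Pax5-KO cells with Pax5, 428 and 557 CPM in Pax5-KO cells with empty pMiG, and 878 and 742 CPM in Wt cells. In Pax5-KO cells the Pax5 vector group lay above both other groups without overlap, and its own libraries were far apart.

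**Figure D1:**
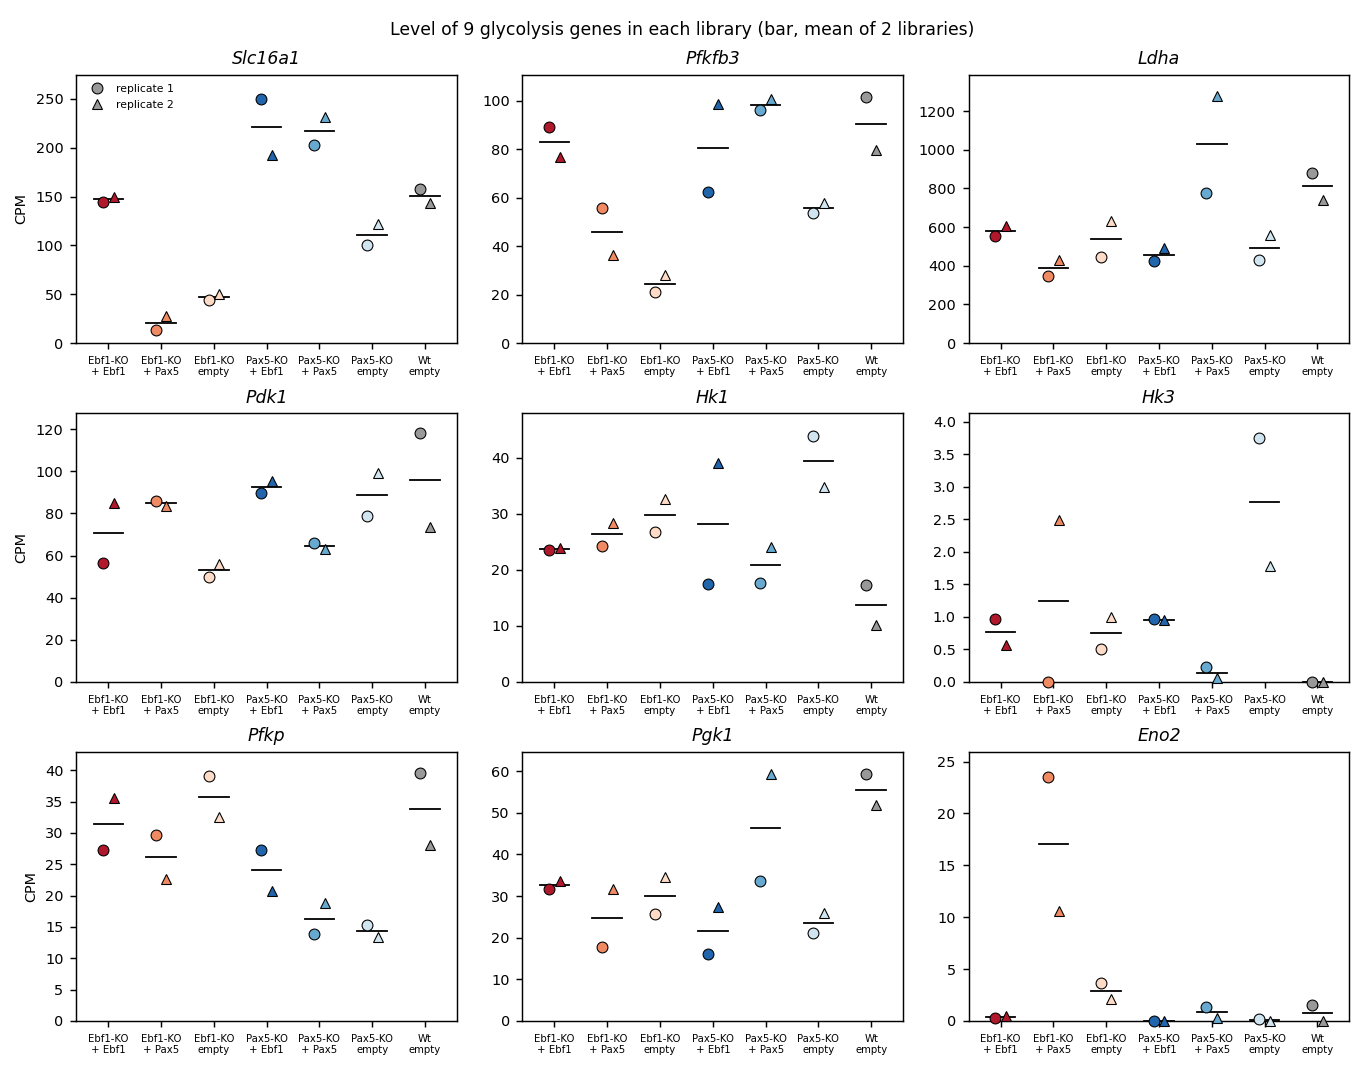
Level in CPM (vertical axes, from 0) of 9 glycolysis genes in each of the 14 libraries, by group; circles are replicate 1, triangles replicate 2 and horizontal bars the mean of 2 libraries. Slc16a1 and Pfkfb3 are lowest in Ebf1-KO groups with Pax5 (Slc16a1, 13.8 and 28.2 CPM) or with empty pMiG (Pfkfb3, 20.9 and 28.3 CPM), and Ldha is highest in Pax5-KO cells with Pax5 (778 and 1276 CPM).

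The promoter windows of these 3 genes are shown because the results turn on them and because each holds the E-box CACGTG, which MYC with MAX can bind, in capitals here. The windows are from RefSeq (GRCm38.p6, the mm10 assembly) and run 250 bases before to 50 bases after a start site, 5′ to 3′ on the strand of the gene: chr3:104638414-104638713 (plus) for Slc16a1, chr2:11502041-11502340 (minus) for Pfkfb3 and chr7:46845554-46845853 (plus) for Ldha.
Slc16a1: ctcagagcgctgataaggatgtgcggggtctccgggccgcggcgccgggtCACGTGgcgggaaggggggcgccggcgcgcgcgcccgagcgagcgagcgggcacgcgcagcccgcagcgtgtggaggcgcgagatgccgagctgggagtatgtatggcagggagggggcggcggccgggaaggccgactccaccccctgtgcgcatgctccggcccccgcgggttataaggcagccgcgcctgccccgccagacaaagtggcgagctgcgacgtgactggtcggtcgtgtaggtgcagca
Pfkfb3: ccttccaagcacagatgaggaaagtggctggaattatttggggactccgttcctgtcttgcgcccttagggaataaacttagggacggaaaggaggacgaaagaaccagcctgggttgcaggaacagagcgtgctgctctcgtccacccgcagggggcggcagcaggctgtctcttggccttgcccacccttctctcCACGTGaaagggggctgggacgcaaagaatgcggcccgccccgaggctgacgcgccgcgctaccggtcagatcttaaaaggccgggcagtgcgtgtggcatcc
Ldha: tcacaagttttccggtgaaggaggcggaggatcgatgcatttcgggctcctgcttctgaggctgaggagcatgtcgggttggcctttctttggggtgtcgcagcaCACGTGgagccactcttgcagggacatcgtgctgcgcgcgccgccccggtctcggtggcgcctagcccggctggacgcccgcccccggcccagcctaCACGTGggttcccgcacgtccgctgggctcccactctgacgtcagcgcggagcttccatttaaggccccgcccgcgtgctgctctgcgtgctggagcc
The E-box begins at -200 from the start site in Slc16a1, at -53 in Pfkfb3 and at -145 and -48 in Ldha. RefSeq gives Pfkfb3 and Ldha 1 further window each in the table used here, with no CACGTG. Promoters were matched for 33 of the 34 genes (50 windows of 300 bases; Slc2a3 was not matched). CACGTG, which reads the same on both strands, stood in a window of 6 of the 33 (18.2%; Ldha, Pdk2, Pfkfb2, Pfkfb3, Pfkm and Slc16a1), beside 11.2% of tested genes and 8.09% of all genes with a window. The shorter ACGTG, the core bound by HIF1, which CACGTG contains, stood on either strand in 19 of the 33 (57.6%), beside 28% of tested genes and 21.8% of all genes. Shares by gene grow with windows per gene, and there were 32851 windows for 27025 genes over all. By window, CACGTG stood in 12% of member windows, beside 7.15% of all windows, and ACGTG in 46%, beside 19.6%. Windows of tested genes alone were not counted. By gene, the tested genes already had higher shares of both motifs than all genes, so all windows are a low background for the members. For EBF1, the palindromic core CCCNNGGG stood in 8 of the 33 (24.2%, beside 21% of tested genes), and the same core flanked by T and A, a subset of its matches, in 0 (beside 1.22% of tested genes). A match of letters is a description and not a site.

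In Ebf1-KO cells with empty pMiG, set against Wt cells with empty pMiG, 0 members rose and 3 fell: Pfkfb3, Slc16a1 and Pdk1. That is 8.82% of the 34, beside 14.7% of all genes tested, 8.02% higher and 6.65% lower (edgeR quasi-likelihood test, Benjamini-Hochberg adjusted p under 0.05). A further 10 members passed an unadjusted p under 0.05 without passing the adjustment. Pfkfb3 fell to 24.6 ± 5.21 CPM in Ebf1-KO cells, against 90.6 ± 15.5 CPM in Wt cells (SD, n = 2 each; log2 fold change -1.88 ± 0.29 SE, edgeR adjusted p = 0.000333). Slc16a1 fell to 47.2 ± 3.92 CPM in Ebf1-KO cells, against 150 ± 9.72 CPM in Wt cells (-1.67 ± 0.28, edgeR adjusted p = 0.000677). Within replicate 1 and replicate 2 taken alone, the log2 differences were -2.28 and -1.49 for Pfkfb3 and -1.82 and -1.52 for Slc16a1, and both genes kept their call under all 20 alternative settings. Pdk1, a kinase that inactivates pyruvate dehydrogenase, had 50.0 and 56.0 CPM in Ebf1-KO cells, against 118 and 73.5 CPM in Wt cells (-0.85 ± 0.26, edgeR adjusted p = 0.0412; -1.24 and -0.39 within replicates 1 and 2), so that the groups did not overlap but the Wt libraries differed widely. Its call was lost without Wt replicate 1 (adjusted p = 0.383), Ebf1-KO empty replicate 1 (0.237) or 2 (0.114), Pax5-KO empty replicate 1 (0.0505), or Pax5-KO with Pax5 replicate 1 (0.0598) or 2 (0.0574). The median log2 fold change was 0.04 over the 34 members and 0.03 over all genes tested. Over all genes, DESeq2 called 21.1% in this comparison. Without Pax5-KO with Ebf1 replicate 1 or 2, which are not in this contrast but share its estimate of spread, 7 members were called, and DESeq2 called 7. The share of all genes was not counted at the unadjusted threshold or in fits that leave out 1 library, here or below. Such counts of members therefore have no background to be read against.

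In Pax5-KO cells with empty pMiG, set against Wt cells, 2 members rose, Hk1 and Hk3, and 2 fell, Pfkp and Pgk1. These 4 are 11.8% of the 34, beside 13.6% of all genes tested by edgeR, 8.65% higher and 5% lower. The median log2 fold change was -0.13 over the members and 0.04 over all genes tested. The count depended on single libraries: it was 2 without Wt replicate 1, 1 without Wt replicate 2, 0 without Pax5-KO empty replicate 1 or 2, and 11 without Pax5-KO with Ebf1 replicate 1 or 2, and DESeq2 called 11. Slc16a1 did not pass here (111 ± 15.3 CPM in Pax5-KO cells against 150 ± 9.72 CPM in Wt cells, -0.44 ± 0.27, edgeR adjusted p = 0.329), nor did Pfkfb3 (55.9 ± 2.88 against 90.6 ± 15.5 CPM, -0.70 ± 0.28, adjusted p = 0.125). Both knockout comparisons share the Wt libraries. Over all genes, DESeq2 called 19.8% in Pax5-KO against Wt. Levels of Xist, given below, also parted Pax5-KO from Wt cells, and their part in these calls was not tested.

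The Ebf1 vector in Ebf1-KO cells raised 2 members and lowered 0 relative to empty pMiG, which is 5.88% of the 34, beside 2.97% of all genes tested by edgeR, 2.21% higher and 0.763% lower. Pfkfb3 rose to 83.1 ± 8.78 CPM with Ebf1, against 24.6 ± 5.21 CPM with empty pMiG (1.76 ± 0.29, edgeR adjusted p = 0.00237; 2.09 within replicate 1 and 1.44 within replicate 2). Slc16a1 rose to 147 ± 3.33 CPM with Ebf1, against 47.2 ± 3.92 CPM with empty pMiG (1.64 ± 0.28, edgeR adjusted p = 0.00318; 1.70 and 1.58). Without Ebf1-KO empty replicate 1 both lost their calls (adjusted p = 0.0581 for Pfkfb3 and 0.0709 for Slc16a1) and the count was 0. These are the genes lower in Ebf1-KO than in Wt cells, and the comparisons share the Ebf1-KO empty libraries. The median over the members was 0.05, and 0.00 over all genes tested.

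The Pax5 vector in Ebf1-KO cells raised 0 members and lowered 1, which is 2.94% of the 34, beside 4.08% of all genes tested by edgeR, 3.15% higher and 0.935% lower. Slc16a1 fell to 21.0 ± 10.2 CPM with Pax5, against 47.2 ± 3.92 CPM with empty pMiG (-1.17 ± 0.28, edgeR adjusted p = 0.0292; -1.69 within replicate 1 and -0.82 within replicate 2). This call was lost when only the libraries of the comparison were fitted (adjusted p = 0.11) and without Ebf1-KO empty replicate 1 (0.129) or 2 (0.188), Ebf1-KO with Pax5 replicate 1 (0.21) or Pax5-KO with Pax5 replicate 2 (0.0525). The count was then 0 without any of those 4 libraries, and 2 without Pax5-KO with Ebf1 replicate 1 or 2; with only the libraries of the comparison, Eno2 was called instead of Slc16a1. Pfkfb3 had 46.0 ± 13.7 CPM with Pax5, against 24.6 ± 5.21 CPM with empty pMiG, and did not pass (0.90 ± 0.28, adjusted p = 0.101). The median over the members was -0.11, and -0.01 over all genes tested; with upper-quartile scaling the median of all genes moved to -0.10.

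In Pax5-KO cells the Ebf1 vector changed 0 of the 34 members by edgeR, beside 3.6% of all genes tested, 1.75% higher and 1.85% lower. An unadjusted p under 0.05 was reached by 4 members, and DESeq2 called 1 higher and 2 lower, beside 11.3% of all genes. Slc16a1 was nearest to the threshold, at 221 ± 40.5 CPM with Ebf1, against 111 ± 15.3 CPM with empty pMiG (1.00 ± 0.27, edgeR adjusted p = 0.0596). The count was 1 without Ebf1-KO with Pax5 replicate 1 or 2, and 6 without Pax5-KO with Ebf1 replicate 2, the deepest library at 42.1 M counts. The libraries of Pax5-KO cells with Ebf1 had the lowest replicate correlation, 0.895.

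The Pax5 vector in Pax5-KO cells raised 1 member, Ldha, and lowered 0, which is 2.94% of the 34, beside 4.03% of all genes tested by edgeR, 1.64% higher and 2.4% lower. Ldha rose to 1027 ± 352 CPM with Pax5, against 493 ± 91.2 CPM with empty pMiG (1.06 ± 0.25, edgeR adjusted p = 0.0283; 0.86 within replicate 1 and 1.20 within replicate 2). Its call was lost without Pax5-KO empty replicate 1 (adjusted p = 0.207) or 2 (0.0926) or Pax5-KO with Pax5 replicate 2 (0.534), and the count was then 0; it was 2 without Ebf1-KO with Pax5 replicate 1 or 2, and 3 without Pax5-KO with Ebf1 replicate 1 or 2. Slc16a1 (217 ± 20.0 CPM with Pax5, against 111 ± 15.3 CPM with empty pMiG, 0.97 ± 0.27) had an adjusted p of 0.0665, and Eno1 (475 ± 187 against 198 ± 13.3 CPM, 1.26 ± 0.40) one of 0.110. The median over the members was 0.22, and 0.01 over all genes tested, and 19 of 34 members had groups that did not overlap (55.9%, beside 47.3% of all genes tested).

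**Figure D2:**
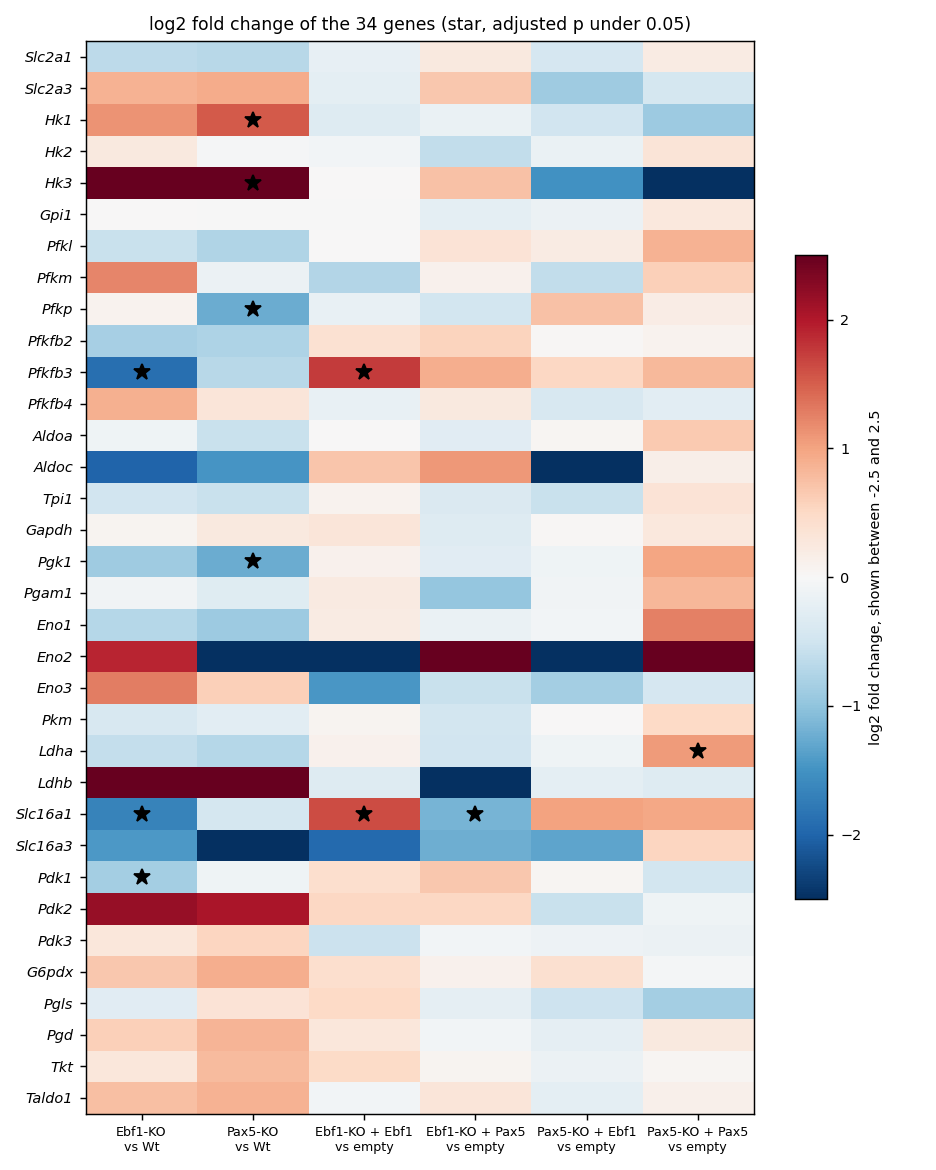
Log2 fold change (colour, shown between -2.5 and 2.5) of the 34 genes (rows, in pathway order) in 6 comparisons (columns); stars mark an edgeR adjusted p under 0.05. Stars fall on Pfkfb3, Slc16a1 and Pdk1 in Ebf1-KO against Wt, on Hk1, Hk3, Pfkp and Pgk1 in Pax5-KO against Wt, and on Pfkfb3, Slc16a1 and Ldha in the vector comparisons.

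The response to the Pax5 vector differed between the knockouts for Slc16a1 and Ldha. With this vector Pax5 itself had 429 and 399 CPM in Ebf1-KO cells and 746 and 440 CPM in Pax5-KO cells. Ebf1 had 252 and 256 CPM in Ebf1-KO cells with Pax5 and 488 and 589 CPM in Pax5-KO cells with Pax5. Xist also parted the knockouts, at 2.31 CPM or less in the Ebf1-KO libraries and 2453 to 10430 CPM in the Pax5-KO libraries. In any difference between the knockouts, the parts of genotype and Xist status cannot be told apart. The part of the Pax5, Ebf1 and Xist levels was not tested. For Slc16a1 the log2 fold change with Pax5 was -1.17 in Ebf1-KO cells and 0.97 in Pax5-KO cells, and the difference was -2.14 ± 0.39 (edgeR interaction, adjusted p = 0.00808; -2.71 within replicate 1 and -1.75 within replicate 2). Its call was lost without Pax5-KO with Pax5 replicate 2 (adjusted p = 0.0566). For Ldha it was -0.47 in Ebf1-KO cells and 1.06 in Pax5-KO cells, a difference of -1.53 ± 0.36 (adjusted p = 0.0326; -1.22 and -1.75). This call was lost without Ebf1-KO empty replicate 2 (0.15), Ebf1-KO with Pax5 replicate 1 (0.127) or 2 (0.0562), Pax5-KO empty replicate 1 (0.111) or 2 (0.0693), or Pax5-KO with Pax5 replicate 2 (0.217). These 2 members are 5.88% of the 34, beside 3.16% of all genes tested, 2.43% with a positive and 0.735% with a negative difference; the count was 1 without each of the first 5 of those libraries and 0 without the last. The response to the Ebf1 vector did not pass as different between the knockouts for any member (0 of 34 by edgeR and by DESeq2, beside 0.612% of all genes tested, 0.577% positive and 0.0344% negative; 2 at an unadjusted p under 0.05, and 3 by edgeR without Pax5-KO with Ebf1 replicate 2). For Pfkfb3 that difference was 1.23 ± 0.40 (edgeR adjusted p = 0.35).

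Set directly against each other in Ebf1-KO cells, the Ebf1 and Pax5 vectors differed at 2 members, 5.88% of the 34, beside 10.2% of all genes tested by edgeR, 4.74% higher and 5.46% lower. Slc16a1 was 2.80 ± 0.29 log2 units higher with Ebf1 (147 ± 3.33 CPM) than with Pax5 (21.0 ± 10.2 CPM), 3.39 within replicate 1 and 2.40 within replicate 2, with an edgeR adjusted p of 2.42e-05 that stayed under the threshold in all 20 alternatives. Eno2, the neuronal enolase (NM_013509, mm10 chr6:124760053-124769673, minus strand), is named here after its values were seen. It had 0.241 and 0.428 CPM with Ebf1, against 23.5 and 10.6 CPM with Pax5 (-5.63 ± 1.64, edgeR adjusted p = 0.0436; -6.21 and -4.41 within replicates 1 and 2). The call of Eno2 was lost without Ebf1-KO empty replicate 1 (0.0546) or 2 (0.0544), Ebf1-KO with Ebf1 replicate 1 (0.247) or 2 (0.209), or Ebf1-KO with Pax5 replicate 1 (0.158) or 2 (0.0681), each leaving a count of 1, and the count was 4 without Pax5-KO with Ebf1 replicate 1 or 2. In Pax5-KO cells the vectors differed at 1 member (2.94%, beside 6.82% of all genes tested, 3.64% higher and 3.18% lower): Ldha had 457 ± 47.7 CPM with Ebf1, against 1027 ± 352 CPM with Pax5 (-1.17 ± 0.26, edgeR adjusted p = 0.0128; -0.88 and -1.38 within replicates 1 and 2). That call was lost with only the libraries of the comparison (0.139) and without Pax5-KO with Ebf1 replicate 1 (0.0582) or Pax5-KO with Pax5 replicate 2 (0.223), each of which left 0; the count was 2 without Wt replicate 1 or 2 or Ebf1-KO empty replicate 1, and 7 without Pax5-KO with Ebf1 replicate 2.

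By role, glucose entry comes first. The carrier Slc2a1 (GLUT1) ranged over 38.0 to 89.6 CPM and Slc2a3 (GLUT3) over 19.8 to 77.1 CPM, and neither passed by edgeR in the 6 comparisons with Wt or empty pMiG. DESeq2 called Slc2a3 in Ebf1-KO against Wt, in Pax5-KO against Wt and with Ebf1 in Pax5-KO cells, and Slc2a1 in Pax5-KO against Wt. EdgeR called Slc2a3 in both knockout comparisons without Pax5-KO with Ebf1 replicate 1 or 2, in Ebf1-KO against Wt also with upper-quartile scaling or only the groups compared, and with Ebf1 in Pax5-KO cells without Pax5-KO with Ebf1 replicate 2. Slc2a1 had 49.0 and 61.6 CPM in Ebf1-KO cells with empty pMiG and 45.9 and 61.7 CPM in Pax5-KO cells with empty pMiG, against 89.6 and 84.7 CPM in Wt cells (adjusted p = 0.126 and 0.107 by edgeR). Slc2a3 had 44.3 and 43.7 CPM in Ebf1-KO cells and 41.0 and 50.6 CPM in Pax5-KO cells, against 21.9 and 26.6 CPM in Wt cells (adjusted p = 0.0743 and 0.0591). On the scale of CPM per kb of exon, which allows genes to be compared, Slc2a1 made up 63.0 and 68.5% of the pair in Ebf1-KO cells and 63.3 and 65.3% in Pax5-KO cells, against 86.3 and 83.1% in Wt cells.

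Among the hexokinases, the ubiquitous Hk1 rose in Pax5-KO cells and the inducible Hk2 passed by edgeR in no comparison. Hk1 (NM_001146100, mm10 chr10:62268855-62340421, minus strand) had 44.0 and 34.9 CPM in Pax5-KO cells with empty pMiG, against 17.3 and 10.1 CPM in Wt cells (1.52 ± 0.40, edgeR adjusted p = 0.0204; 1.35 and 1.78 within replicates 1 and 2). The Wt libraries were the 2 lowest of the 14. Its call was lost without Wt replicate 2 (adjusted p = 0.201) or Pax5-KO empty replicate 1 (0.0999) or 2 (0.0546). Ebf1-KO cells with empty pMiG had 26.8 and 32.6 CPM of Hk1 (1.12 ± 0.40 against Wt, adjusted p = 0.0794). Hk2 ranged over 24.7 to 56.0 CPM. Hk3 (NM_001206390, mm10 chr13:55005985-55020819, minus strand), known from myeloid cells, was low everywhere: 3.75 and 1.78 CPM in Pax5-KO cells with empty pMiG, against 0 counts in both Wt libraries. With the floor of 3 counts over the Wt group, Hk3 was at least 31.1-fold higher in Pax5-KO cells (140 counts; edgeR adjusted p = 0.0363), and at least 9.65-fold higher in Ebf1-KO cells, where it did not pass (40 counts; 0.503 and 1.00 CPM; adjusted p = 0.0875). Hk3 overlaps Unc5a in the table, so that without a stated strand setting its reads may belong to either gene. The Hk3 call was lost without Wt replicate 1 (0.149) or 2 (0.192), Ebf1-KO empty replicate 2 (0.0521), or Pax5-KO empty replicate 1 (0.0893) or 2 (0.0772). The myeloid markers moved in the same direction (505 and 633 CPM in Pax5-KO cells with empty pMiG, against 65.6 and 60.7 CPM in Wt cells); their part in the Hk3 values was not tested.

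As shares of the hexokinase total in CPM per kb, Hk1 made up 59.0 and 48.0% in Pax5-KO cells with empty pMiG and 45.1 and 42.8% in Ebf1-KO cells with empty pMiG, against 33.0 and 26.9% in Wt cells. Hk2 was the larger part in Wt cells (67 and 73.1%) and in Pax5-KO cells with Pax5 (68.3 and 60.5%). It was also the larger part in Ebf1-KO cells with Ebf1 (58.2 and 59.2%) and with empty pMiG (53.7 and 55.4%). In Ebf1-KO cells with Pax5 it was 43.4 and 48.3%, beside 56.6 and 46.2% for Hk1. In Pax5-KO cells with empty pMiG Hk2 was 34.1 and 48.7%. In Pax5-KO cells with Ebf1 the libraries gave opposite orders, with Hk1 at 35.9 and 60.1%. With 2 libraries a group the shares carry no test.

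Phosphofructokinase 1 differed in its subunits. Pfkp, the platelet-type subunit (NM_019703, mm10 chr13:6579874-6648771, minus strand), had 15.4 and 13.4 CPM in Pax5-KO cells with empty pMiG, against 39.5 and 28.1 CPM in Wt cells (-1.23 ± 0.34, edgeR adjusted p = 0.0233; -1.36 and -1.06 within replicates 1 and 2). The groups did not overlap, and Pax5-KO cells with Pax5 were also low, at 13.9 and 18.8 CPM, while Ebf1-KO cells with empty pMiG, at 39.0 and 32.5 CPM, overlapped Wt. The Pfkp call was lost without Wt replicate 1 (adjusted p = 0.164) or Pax5-KO empty replicate 1 (0.078) or 2 (0.172). Pfkl, the liver-type subunit, had 41.4 and 38.1 CPM in Pax5-KO cells and 27.8 and 62.8 CPM in Ebf1-KO cells, against 65.0 and 68.4 CPM in Wt cells. Pfkm, the muscle-type subunit, had 10.8 and 8.31 CPM in Pax5-KO cells and 23.0 and 25.8 CPM in Ebf1-KO cells, against 12.5 and 8.58 CPM in Wt cells (Ebf1-KO against Wt 1.21 ± 0.51, adjusted p = 0.137). Pfkl held the largest share of the family in both Wt libraries, 55.0 and 64.7%, and in both Pax5-KO empty libraries, 59.3 and 61.9%. In Ebf1-KO cells with empty pMiG replicate 1 was led by Pfkp (38.2%, beside 29.4% for Pfkl) and replicate 2 by Pfkl (49.4%). Pfkm took 32.4 and 26.9% in Ebf1-KO cells, against 14 and 10.8% in Wt cells. Pfkp overlaps Pitrm1 and Pfkm overlaps Senp1 in the table, and no strand setting is stated, so reads may be shared between them; the same holds for Tpi1 with Spsb2 and Tkt with Mir3076.

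**Figure D3:**
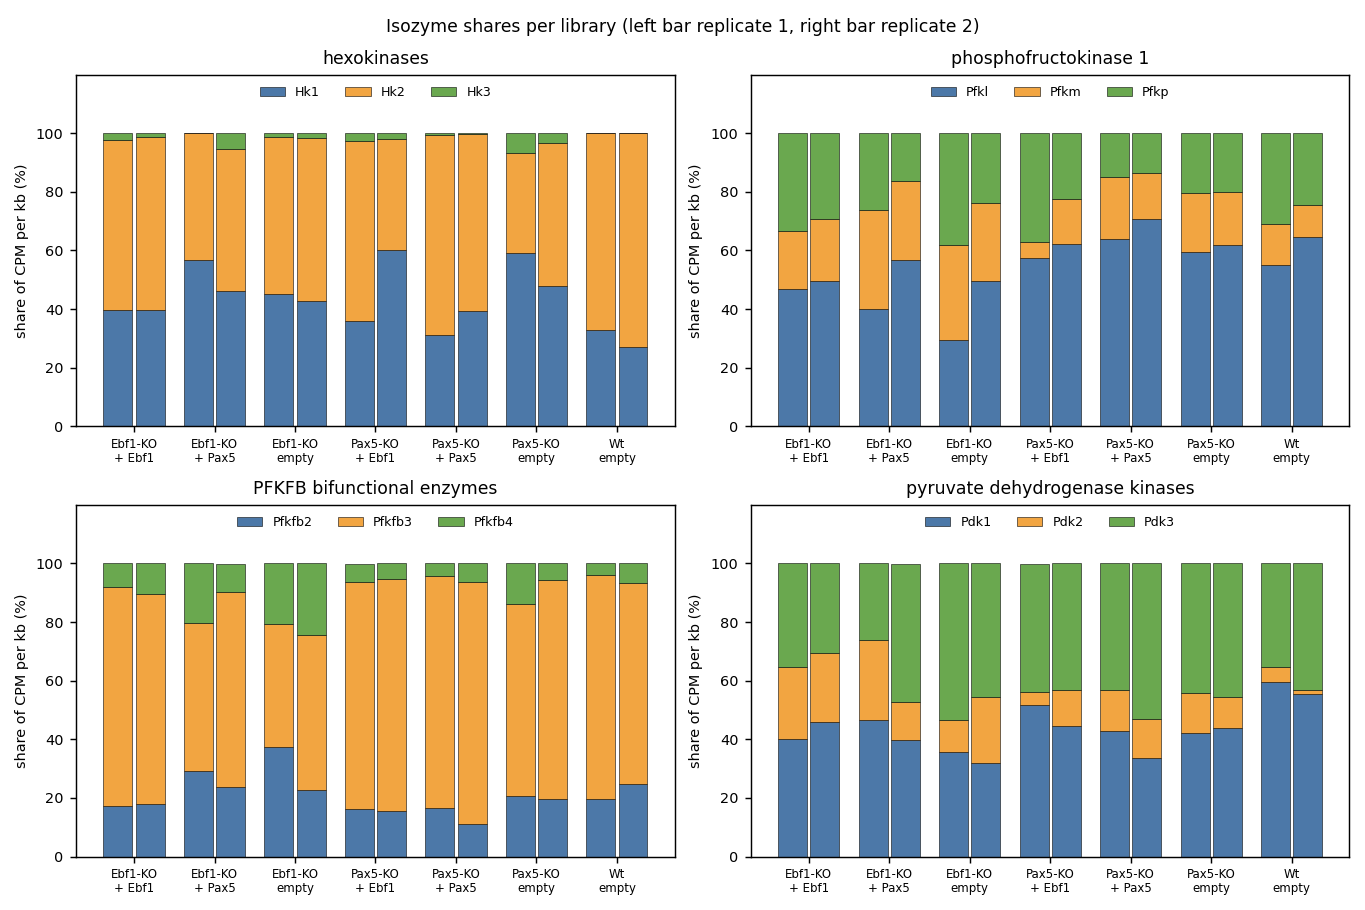
Share (percent of the family's summed CPM per kb of exon, vertical axes) of each isozyme of the hexokinase, phosphofructokinase 1, PFKFB and pyruvate dehydrogenase kinase families in each library; in each group the left bar is replicate 1 and the right bar replicate 2. Hk1 takes 59.0 and 48.0% of the hexokinases in Pax5-KO cells with empty pMiG, against 33.0 and 26.9% in Wt cells, and Pfkfb3 takes 42.0 and 52.9% of the PFKFB family in Ebf1-KO cells with empty pMiG, against 76.6 and 68.7% in Wt cells.

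Within the PFKFB family Pfkfb3 was the member that passed by edgeR in any comparison. Pfkfb2, the heart-type isozyme, had 26.4 and 17.1 CPM in Ebf1-KO cells and 23.9 and 21.3 CPM in Pax5-KO cells, against 36.8 and 40.6 CPM in Wt cells. Pfkfb4 had 6.63 and 8.49 CPM in Ebf1-KO cells, 7.35 and 2.78 CPM in Pax5-KO cells and 3.26 and 4.92 CPM in Wt cells, and its range over all libraries was 2.78 to 14.5 CPM. Per kb, Pfkfb3 made up 42.0 and 52.9% of the family in Ebf1-KO cells with empty pMiG, against 76.6 and 68.7% in Wt cells. Its share was 74.9 and 71.7% in Ebf1-KO cells with Ebf1, and 50.4 and 66.8% in Ebf1-KO cells with Pax5. In the Pax5-KO groups it ranged over 65.6 to 82.6%.

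In lower glycolysis Pgk1, which encodes phosphoglycerate kinase (NM_008828, mm10 chrX:106187100-106203699, plus strand), was the member that passed by edgeR in the 6 comparisons with Wt or empty pMiG. It had 21.1 and 25.9 CPM in Pax5-KO cells with empty pMiG, against 59.3 and 51.8 CPM in Wt cells (-1.24 ± 0.38, edgeR adjusted p = 0.0422; -1.49 and -0.995 within replicates 1 and 2), with no overlap. Its call was lost in 8 of the 14 fits that leave out 1 library: without Wt replicate 1 (adjusted p = 0.154) or 2 (0.126), Ebf1-KO empty replicate 1 (0.0557) or 2 (0.0572), Ebf1-KO with Ebf1 replicate 1 (0.0614) or 2 (0.062), or Pax5-KO empty replicate 1 (0.19) or 2 (0.147). Ebf1-KO cells with empty pMiG had 25.7 and 34.5 CPM (-0.88 ± 0.38 against Wt, adjusted p = 0.143). Pgk1, G6pdx and Pdk3 lie on chromosome X. Xist, transcribed from an inactive X chromosome, had 2453 to 10430 CPM in the Pax5-KO groups. It had 2.31 CPM or less in the Ebf1-KO groups, against 0.466 and 29.6 CPM in Wt cells. In Pax5-KO against Wt the Xist difference therefore coincides with genotype for every member, on any chromosome. The parts of Xist status and genotype cannot be told apart there and were not tested. Gpi1 (114 to 226 CPM over the 14 libraries), Aldoa (156 to 436), Tpi1 (41.3 to 161), Gapdh (11.2 to 21.9), Pgam1 (1.85 to 8.83), Eno1 (117 to 607), Eno3 (1.48 to 13.2) and Pkm (202 to 675) carry the other steps between glucose 6-phosphate and pyruvate, and none passed by edgeR in the 6 comparisons with Wt or empty pMiG. Eno1 was called with Pax5 in Pax5-KO cells by DESeq2, and by edgeR with no filter, with only the groups compared or without Pax5-KO with Ebf1 replicate 1 or 2. It was also called in both knockouts against Wt with no filter, and in Pax5-KO against Wt with only the groups compared. Aldoc, the brain-type aldolase, ranged over 0 to 4.71 CPM. Per kb, Aldoa was at least 99.2% of the aldolases, and Eno1 was 87.5 to 99.4% of the enolases in each library, Eno2 included.

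Per kb, the order of levels in Wt cells was led by Ldha (502 ± 59.8 CPM per kb), Eno1 (212 ± 53.6), Aldoa (199 ± 29.5) and Pkm (189 ± 46.4); the last 3 of these did not differ beyond their spread. Tpi1 (89.9 ± 16.0), Pgls (89.4 ± 4.70) and Tkt (67.6 ± 6.88) came next, and Hk3 (0), Ldhb (0.11 ± 0.16) and Eno2 (0.27 ± 0.38) were last. Gapdh, at 10.1 ± 2.37 CPM per kb, was only the 19th of 34. Gapdh, Aldoa, Tpi1, Pgk1, Pgam1, Ldha and Ldhb have copies that RefSeq names as pseudogenes or related genes, and Eno1 shares its locus with Eno1b. How reads that map to several places were treated is not stated, so the levels of these genes are uncertain.

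At the end of the pathway, Ldhb, the lactate dehydrogenase subunit that favours pyruvate, ranged over 0 to 2.62 CPM, and Ldha held at least 99.5% of the pair per kb in every library. The other monocarboxylate carrier among the members, Slc16a3 (MCT4), was far below Slc16a1, at 0.176 to 13.4 CPM. It had 1.19 and 0.848 CPM in Pax5-KO cells and 4.39 and 2.90 CPM in Ebf1-KO cells, against 13.4 and 6.41 CPM in Wt cells (Pax5-KO against Wt -3.28 ± 1.12, edgeR adjusted p = 0.0677). Slc16a7, a further carrier gene of this family, is not a member and is counted below among the neighbouring enzymes and carriers. It had 33.97 ± 7.087 CPM in Ebf1-KO cells with empty pMiG, against 6.235 ± 5.667 CPM in Wt cells. That rise passed (2.45 ± 0.62, edgeR adjusted p = 0.0135) and held in 18 of 20 alternatives. Slc16a7 was not called in Pax5-KO against Wt.

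Among the pyruvate dehydrogenase kinases Pdk1 was described above for Ebf1-KO cells. It had 78.7 and 99.3 CPM in Pax5-KO cells with empty pMiG, against 118 and 73.5 CPM in Wt cells, which overlap. Pdk2 had 6.68 and 17.3 CPM in Ebf1-KO cells and 11.1 and 10.7 CPM in Pax5-KO cells, against 4.56 and 0.744 CPM in Wt cells (2.17 ± 0.77, edgeR adjusted p = 0.0773, and 2.03 ± 0.77, adjusted p = 0.1). Pdk3 ranged over 18.6 to 39.5 CPM and passed by edgeR in no comparison. Per kb, Pdk1 made up 35.7 and 31.9% of the family in Ebf1-KO cells with empty pMiG and 42.2 and 43.8% in Pax5-KO cells with empty pMiG, against 59.4 and 55.5% in Wt cells. Pdk3 made up 53.4 and 45.6% in Ebf1-KO cells with empty pMiG, ahead of Pdk1 per kb only: without the division by length Pdk3 was 33.6 and 29.6% there, and Pdk1 was ahead at 58.6 and 53.8%. Per kb Pdk3 was also ahead in Pax5-KO cells with empty pMiG (44.1 and 45.4%). In Pax5-KO cells with Pax5 it was ahead as well (43.1 and 53.2%, beside 42.9 and 33.5% for Pdk1). Pdk2 took 1.29 to 5.27% in Wt cells and 4.31 to 27.4% in the knockout libraries.

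No gene of the pentose phosphate pathway passed by edgeR in any comparison, but in Pax5-KO against Wt several lay close to the threshold. There DESeq2 called G6pdx and Taldo1, edgeR with only the groups compared called G6pdx, Pgd and Tkt, and edgeR with no filter, or without Pax5-KO with Ebf1 replicate 1 or 2, called G6pdx, Pgd, Tkt and Taldo1. G6pdx was also called without Ebf1-KO empty replicate 1 or 2. Without Pax5-KO with Ebf1 replicate 2, Pgd and Pgls were called with Ebf1 in Pax5-KO cells and in the difference between Ebf1 responses, and Pgd between the Ebf1 and Pax5 vectors in Pax5-KO cells. Pgls was called with Pax5 in Pax5-KO cells with no filter. G6pdx, the entry enzyme, had 60.5 and 100.5 CPM in Ebf1-KO cells and 103 and 84.9 CPM in Pax5-KO cells with empty pMiG, against 53.6 and 46.8 CPM in Wt cells (edgeR adjusted p = 0.154 and 0.0597). Pgd, the next NADPH-forming enzyme, had 104 and 135 CPM in Ebf1-KO cells and 159 and 127 CPM in Pax5-KO cells, against 85.8 and 72.6 CPM in Wt cells. Tkt and Taldo1, of the branch that returns sugars to glycolysis, had 223 and 307 CPM and 46.8 and 60.6 CPM in Ebf1-KO cells, and 313 and 435 CPM and 51.2 and 65.0 CPM in Pax5-KO cells, against 233 and 202 CPM and 37.1 and 26.6 CPM in Wt cells. Taldo1 had adjusted p = 0.128 and 0.0813 and Tkt 0.108 in Pax5-KO cells. Pgls, the lactonase, ranged over 50.5 to 174 CPM. In Pax5-KO cells both libraries of G6pdx, Pgd, Tkt and Taldo1 lay above both Wt libraries. Groups that do not overlap were common in this comparison: 23 of the 34 members (67.6%), beside 57.6% of all genes tested, and 25 of 34 (73.5%, beside 59.6%) in Ebf1-KO against Wt. In the vector comparisons the groups did not overlap for 13 members with Ebf1 in Ebf1-KO cells (38.2%, beside 47.6% of all genes tested), 14 with Pax5 in Ebf1-KO cells (41.2%, beside 49.5%) and 9 with Ebf1 in Pax5-KO cells (26.5%, beside 42.1%). Between the Ebf1 and Pax5 vectors they did not overlap for 17 members in Ebf1-KO cells (50%, beside 56%) and 16 in Pax5-KO cells (47.1%, beside 45.3%).

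The members also moved together between the libraries of a group. Replicate 2 was higher than replicate 1 in 28 of 34 members in Ebf1-KO cells with Ebf1, 23 with Pax5 and 28 with empty pMiG, and in 27, 25 and 17 members in Pax5-KO cells with Ebf1, Pax5 and empty pMiG. In Wt cells replicate 1 was higher in 27 of 34. The median difference, replicate 2 minus replicate 1 in log2 CPM, was 0.38, 0.36 and 0.39 in the 3 Ebf1-KO groups, 0.59, 0.43 and 0.02 in the 3 Pax5-KO groups and -0.35 in Wt cells, while over all genes tested it lay between -0.04 and 0.07. The summed CPM of the members was 2266 and 3392 in Ebf1-KO cells with empty pMiG and 2701 and 3254 in Pax5-KO cells with empty pMiG, against 3919 and 3127 in Wt cells. The main fit left the replicate number out, and a replicate block among the alternatives raised the number of members called in both knockout comparisons. Replicates 1 and 2 also carry different run tags in the table, and what the tag marks is not stated. Differences taken within replicate 1 alone and within replicate 2 alone could therefore be far apart, as for Ldha in Ebf1-KO against Wt (-0.98 and -0.23).

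**Figure D4:**
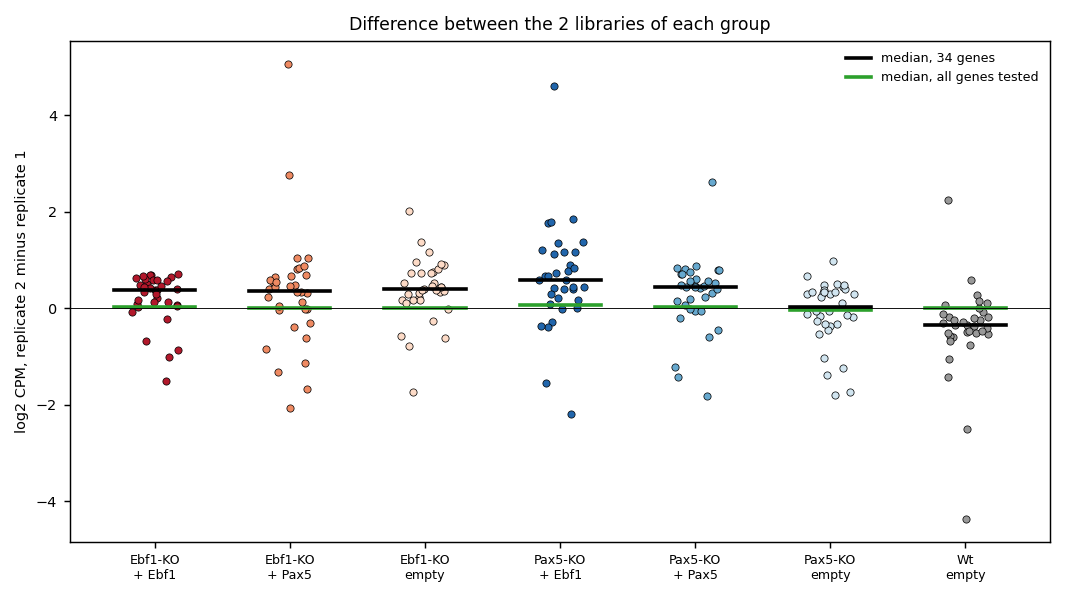
Difference in log2 CPM between the libraries of each group (vertical axis, replicate 2 minus replicate 1) for each of the 34 genes (points), with the median over the 34 genes (black line) and over all genes tested (green line). The black line lies at 0.36 to 0.59 in 5 of the 6 knockout groups and at -0.35 in Wt, while the green line stays between -0.04 and 0.07.

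Genes around the pathway were counted from 3 lists. Of 50 neighbouring enzymes and carriers, 39 were tested; 3 rose and 1 fell in Ebf1-KO against Wt (10.3%, beside 14.7% of all genes tested), 3 rose and 2 fell in Pax5-KO against Wt (12.8%, beside 13.6%), and with the Pax5 vector in Ebf1-KO cells 1 rose and 1 fell (5.13%, beside 4.08%). In the other 3 comparisons DESeq2 called 1 with Ebf1 in Ebf1-KO cells (beside 5.26% of all genes). It called 3 with Ebf1 in Pax5-KO cells (beside 11.3%) and 2 with Pax5 in Pax5-KO cells (beside 8.39%). An unadjusted edgeR p under 0.05 was reached by 1, 5 and 4 neighbours in that order. The edgeR calls numbered 0 in each. By edgeR these became 1 with Ebf1 in Ebf1-KO cells and 2 with Pax5 in Pax5-KO cells without Pax5-KO with Ebf1 replicate 1 or 2, and with Ebf1 in Pax5-KO cells 1 without Pax5-KO with Ebf1 replicate 1 and 6 (1 higher and 5 lower) without its replicate 2. The carrier gene Slc2a6 had 13.7 ± 2.19 CPM in Ebf1-KO cells and 13.7 ± 0.91 CPM in Pax5-KO cells, against 2.01 ± 0.09 CPM in Wt cells (2.77 ± 0.58 in both; edgeR adjusted p = 0.00417 in Ebf1-KO and 0.00495 in Pax5-KO, where the call was lost without Wt replicate 2, 0.0515). The count in Ebf1-KO against Wt was 2 without Wt replicate 1 or Ebf1-KO empty replicate 1 or 2, and that in Pax5-KO against Wt was 3 without Wt replicate 1 or Pax5-KO empty replicate 1 and 1 without Wt replicate 2 or Pax5-KO empty replicate 2. H6pd, whose product starts a pentose phosphate route in the endoplasmic reticulum, rose to 236 ± 6.67 CPM with Pax5 in Ebf1-KO cells, against 100.6 ± 15.7 CPM with empty pMiG (1.23 ± 0.25, edgeR adjusted p = 0.0107; lost without Ebf1-KO empty replicate 1, 0.192, or Ebf1-KO with Pax5 replicate 2, 0.075). The count in that comparison was 0 without Ebf1-KO empty replicate 1, 2 without either library of Pax5-KO with Ebf1, and 1 without any other library.

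Of 28 regulators of glycolysis genes, all tested, 1 rose and 2 fell in Ebf1-KO against Wt, and 2 rose and 1 fell in Pax5-KO against Wt, 10.7% in each, beside 14.7% and 13.6% of all genes tested. Mlxip, which encodes the glucose sensor MondoA, was lower in both: 116 ± 1.29 CPM in Ebf1-KO cells and 103 ± 15.1 CPM in Pax5-KO cells, against 302 ± 43.8 CPM in Wt cells (-1.38 ± 0.20, edgeR adjusted p = 0.000154, and -1.55 ± 0.20, adjusted p = 6.24e-05), in all 20 alternatives each. Arrdc4 went the other way in both, at 8.2 ± 0.41 CPM in Ebf1-KO cells and 6.15 ± 0.22 CPM in Pax5-KO cells, against 0 CPM in Wt cells. Its edgeR adjusted p was 0.00506 and 0.00765, and the call held in 20 and 18 of 20 alternatives. Mlxip rose with Pax5 in Ebf1-KO cells (1.09, edgeR adjusted p = 0.00441). In Pax5-KO cells it rose with Ebf1 (0.90, edgeR adjusted p = 0.0191) and with Pax5 (0.98, 0.00849). Each of these rises lost its call without some single libraries, and that with Ebf1 also with only the groups compared. With the Pax5 vector in Ebf1-KO cells 2 regulators rose and 2 fell (14.3%, beside 4.08%); this count of 4 was 2 without Ebf1-KO empty replicate 1 or Ebf1-KO with Pax5 replicate 1 or 2, 1 without Ebf1-KO empty replicate 2, and 7 without Pax5-KO with Ebf1 replicate 1 or 2. Txnip, a MondoA target that limits glucose uptake, rose to 440.0 ± 15.1 CPM with Pax5, against 158 ± 19.9 CPM with empty pMiG (1.48 ± 0.21, edgeR adjusted p = 0.000901), in all 20 alternatives. Myc, whose protein activates many glycolysis genes, had 66.8 and 84.3 CPM with Pax5, against 143 and 187 CPM with empty pMiG (-1.13 ± 0.25, adjusted p = 0.0209; lost without Ebf1-KO empty replicate 2, 0.182, or Ebf1-KO with Pax5 replicate 1, 0.161, or 2, 0.0502). With Ebf1 in Ebf1-KO cells Myc had 308 and 418 CPM (1.14 ± 0.25, adjusted p = 0.0214; lost without Ebf1-KO empty replicate 1, 0.307, or 2, 0.0514, or Ebf1-KO with Ebf1 replicate 2, 0.302), the only regulator called there (3.57%, beside 2.97% of all genes tested). The Pax5 response of Myc differed between the knockouts (-2.04 ± 0.36, edgeR adjusted p = 0.00624), as that of Slc16a1 did. There too Xist status coincided with the knockout. In Ebf1-KO cells Myc and Slc16a1 each rose with Ebf1 and fell with Pax5, in comparisons that share the empty pMiG libraries. With Pax5 there, Pfkfb3 had a log2 fold change of 0.90 (edgeR adjusted p = 0.101). With Ebf1 in Pax5-KO cells Slc16a1 had 1.00 (edgeR adjusted p = 0.0596) and Myc 0.28 (0.57). Any part of Myc in the values of the members was not tested. In Pax5-KO cells with Pax5 Myc had 499 and 670.1 CPM, against 277 and 344 CPM with empty pMiG (0.91 ± 0.25, adjusted p = 0.06).

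Other target genes of HIF1, the oxygen-sensing factor that also drives many glycolysis genes, included genes that fell in each knockout comparison. Of 17 tested, 0 rose and 8 fell in Ebf1-KO against Wt (47.1%, beside 6.65% of all genes called lower), with a median log2 fold change of -0.71. In Pax5-KO against Wt 2 rose and 8 fell (58.8%, beside 13.6% called in either direction), with a median of -0.97. Bnip3, a mitophagy receptor, had 10.2 ± 1.59 CPM in Ebf1-KO cells and 4.97 ± 0.46 CPM in Pax5-KO cells, against 42.3 ± 5.56 CPM in Wt cells (-2.06 ± 0.38, edgeR adjusted p = 0.00163, and -3.09 ± 0.40, adjusted p = 8.24e-05). Vegfa, the vascular growth factor, had 181 ± 40.2 CPM in Ebf1-KO cells, against 520 ± 91.2 CPM in Wt cells (-1.52 ± 0.32, adjusted p = 0.0046; 0.0622 without Ebf1-KO empty replicate 2), and P4ha1, a collagen prolyl hydroxylase, had 33.7 ± 3.49 against 73.9 ± 4.03 CPM (-1.13 ± 0.25, adjusted p = 0.00538; 0.0988 without Ebf1-KO empty replicate 1). The Ebf1-KO count was 5 without Wt replicate 1, 4 without Wt replicate 2 and 2 without Ebf1-KO empty replicate 1 or 2, and the Pax5-KO count was 7 to 11 over the same kind of fits. With the Pax5 vector in Pax5-KO cells Bnip3 rose to 24.4 ± 0.64 CPM, against 4.97 ± 0.46 CPM with empty pMiG (2.29 ± 0.39, edgeR adjusted p = 0.00293), while Egln3, a HIF prolyl hydroxylase that stands in both lists, fell to 15.1 ± 1.28 CPM, against 83.3 ± 22.6 CPM (-2.46 ± 0.39, adjusted p = 0.00195). The glycolysis members, by comparison, were called at 8.82 and 11.8% in the same knockout comparisons. The list was chosen with earlier results known.

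Some EBF1 peaks of the pre-B line lay at start sites of members. Of 17230 peaks, a peak centre fell within 1 kb of the start site of 12 of the 34 members (35.3%, exact binomial 95% interval 19.7 to 53.5%), beside 27.4% of tested genes, which lies within that interval, and 19 members had a peak within the gene or 10 kb of it (55.9%, beside 57.9%). The 12 were Slc2a1, Hk1, Pfkl, Pfkm, Pfkp, Pfkfb2, Pfkfb4, Pkm, Slc16a1, Pdk1, Pdk3 and Pgls. At Slc16a1 the peak spanned chr3:104638652-104638972, centred 148 bases after the start site and sharing 62 bases with the promoter window printed above. Its findPeaks score, the authors' value, was 40, beside a median of 41 over the list, and its fold over control was 5.77, beside a median of 12.3. Pfkfb3 and Ldha had no listed peak within 10 kb of the transcript in the count table. The further RefSeq window of Pfkfb3, at chr2:11553880-11554179, overlapped 0 peaks, and its surroundings were not searched. The highest-scoring peak near a member lay downstream of Pfkfb4 (score 244), followed by 1 downstream of Aldoa (199) and 1 downstream of Pgls (164). The peaks come from another cell type than the RNA, and 1 list gives no replicate comparison.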

How the data were processed

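The 34 genes and the other lists were chosen with earlier results of these data known. Raw exon counts per gene were deposited, made by the authors with HOMER on mm10 with 1 transcript kept per gene and no adjustment, per the file headers. The submitters' processing notes also name bedtools, Bowtie2 2.3.5 and 2.3.4.2, FastQC, DESeq2, Picard, HiC-Pro 2.11.1, HOMER 4.8, STAR 2.6.0b-1 and Trim Galore 0.6.4, with no roles. The strand setting and the treatment of multi-mapped reads are not given in the sources used here. The deposited EBF1 peak list holds, for each peak, the authors' normalized tag count (a signal), findPeaks score and fold change over control, per the file headers. In Pax5-KO cells with empty pMiG, the unnumbered column served as replicate 1; 0 columns were left unused.

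Counts were fitted with edgeR 4.0.16 in R 4.3.3: TMM scaling, filterByExpr, 1 quasi-likelihood fit over 14 libraries in 7 groups, and Benjamini-Hochberg adjustment over 14550 genes at 0.05 in each of 10 comparisons. Errors beside fold changes are standard errors, and those beside CPM are SD. Log2 CPM used a prior count of 2. Isozyme shares and comparisons between genes used CPM per kb of the table's exon length. Where a group had 0 counts, 3 counts over that group gave a bound; this floor and the intervals cover counting error only. Alternatives were RLE and upper-quartile scaling, no filter, DESeq2 1.42.0, a replicate block, only the groups compared, and each library left out in turn; the same alternatives for the other lists were added after the data were seen. The fit was tested on simulated data. Members called in the comparisons with Wt or empty pMiG or between responses were named in full, all Hk, Pfk, Pfkfb and Pdk members with levels, the rest by range, and from each other list up to 3 genes of lowest adjusted p in a comparison. Figures were drawn with matplotlib 3.10.9.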

Additional observations from a re-analysis of the deposited data

Results flagged for a closer look

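The response to the Pax5 vector differed between Ebf1-KO and Pax5-KO cells for Ldha by -1.53 log2 units (-0.47 in Ebf1-KO cells and 1.06 in Pax5-KO cells) and for Slc16a1 by -2.14 log2 units (-1.17 in Ebf1-KO cells and 0.97 in Pax5-KO cells), each tested as a difference of differences with edgeR (adjusted p = 0.0326 for Ldha and 0.00808 for Slc16a1). Xist status also differed between these knockouts, and its part cannot be told apart from that of genotype.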

How the results depend on the processing

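No called fold change of a member changed direction under any of the 20 alternatives. The number of members called moved more than the fold changes. In Ebf1-KO against Wt, 3 members were called, and 6 with no filter, 7 with DESeq2, 6 with the replicate block and 7 with only the groups compared (2 to 7 when 1 library was left out). In Pax5-KO against Wt, 4 became 12 with no filter, 11 with DESeq2, 9 with the replicate block and 10 with only the groups compared (0 to 11). With Ebf1 in Ebf1-KO cells the count was 2 (0 to 2), and with Pax5 in Ebf1-KO cells it was 1, or 2 with DESeq2 (0 to 2). With Ebf1 in Pax5-KO cells 0 became 1 with no filter, 3 with DESeq2 and 1 with the replicate block (0 to 6). With Pax5 in Pax5-KO cells 1 became 4 with no filter, 3 with DESeq2, 3 with the replicate block and 4 with only the groups compared (0 to 3). Ebf1 against Pax5 gave 2, or 4 with DESeq2, in Ebf1-KO cells (1 to 4); in Pax5-KO cells it gave 1, 2 with upper-quartile scaling, 5 with no filter, 5 with DESeq2, 4 with the replicate block and 0 with only the groups compared (0 to 7). The difference in Pax5 response gave 2 (0 to 2) and that in Ebf1 response 0 (0 to 3). The share of all genes called was not counted in fits that leave out 1 library. Under the other settings it moved too, given here in the same order. It was 13.9, 21.1, 17.2 and 21.6% in Ebf1-KO against Wt, and 14, 19.8, 16.8 and 17.6% in Pax5-KO against Wt. With Pax5 in Ebf1-KO cells it was 9.29%. In Pax5-KO cells it was 6.56, 11.3 and 5.64% with Ebf1, and 5.57, 8.39, 5.42 and 8.06% with Pax5. Between the vectors it was 16.9% in Ebf1-KO cells, and 7.07, 9.24, 15.7, 9.48 and 1.55% in Pax5-KO cells. The causes were not tested. Members with an EBF1 peak at the start site numbered 12, or 4 with the higher-scoring 50% of peaks. Of 84 mean isozyme shares 54 moved by more than the spread between libraries on raw counts without the division by length. Myc with Ebf1 in Pax5-KO cells, which was not called (0.28), was -0.024 without Pax5-KO with Ebf1 replicate 2 and 0.52 without replicate 1. Replicates 1 and 2 carry different run tags of unstated meaning. Deviations of same-numbered libraries correlated at -0.06 to 0.01 between Wt and the knockout groups (6 pairs) and 0.08 to 0.24 among the knockout groups (15 pairs); not every pair was over 0.1, so the numbers were not taken as pairing. In the 6 comparisons with Wt or empty pMiG the block added Slc2a1, Slc2a3 and Ldha to the calls in both knockouts against Wt, G6pdx and Tkt in Pax5-KO against Wt, Slc16a1 with either vector in Pax5-KO cells, and Eno1 with Pax5 there. With 2 libraries a group, moderate changes of noisy members can be missed.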
